A study of Drosophila melanogaster with 12 samples.

Results

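Glutathione transferases (Gst genes) and UDP-glycosyltransferases (Ugt genes) were followed in heads of y w; tim01 flies, 67 genes of the 10844 that the arrays measured. Members were all genes whose single current symbol begins with Gst and a capital letter or with Ugt and a digit, which gave 34 Gst and 33 Ugt genes. Of 70 genes of these names in the gene table, 3 (GstT1, Ugt35D1 and Ugt50B3) were not analysed here. Where a gene had several probe sets, the one with the highest mean stood for it. This concerned GstO2, Ugt35B1 and Ugt305A1, and the 67 genes were covered by 71 probe sets in all.

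All flies carried tim01, a loss-of-function allele of the clock gene timeless, so no group had a running circadian clock. Flies were kept in darkness throughout. Each of 12 Affymetrix arrays held RNA of pooled adult heads, 1 array for each of 6 hours (2, 6, 10, 14, 18 and 22) on each of 2 days. On the CA day, the cryophase (CA cold; CA2, CA6 and CA10) was at 18 °C and the thermophase (CA warm; CA14, CA18 and CA22) at 25 °C. On the following AA day, the subjective cryophase (AA2, AA6 and AA10) and subjective thermophase (AA14, AA18 and AA22) were both at 25 °C. Each of the 4 groups therefore had 3 arrays, all from different hours. Nothing in the labels says that these came from separate cultures. The p-values of the phase and day comparisons below therefore measure differences against the spread between hours within a phase. The hour test instead sets hours against the disagreement between the 2 days of an hour. The p of daily periodicity comes from reordering the 6 time points of a day. Fewer cells of a type and less RNA per cell cannot be told apart in such pooled heads.

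Glutathione transferases join the tripeptide glutathione to reactive, electrophilic molecules, and several also reduce peroxides or isomerise metabolites. UDP-glycosyltransferases move a sugar from a UDP-sugar to small lipophilic molecules, which makes these easier to excrete. In insects both families are best known from detoxification of plant compounds and insecticides in gut, fat body and Malpighian tubule, and some members act in the antenna, where they clear odorants. The delta and epsilon classes (GstD and GstE) are found in insects and other arthropods and lie in tandem clusters. In the gene order of the fly, all 11 GstD genes formed 1 run on arm 3R, 10 GstE genes formed 1 run on arm 2R, and 9 Ugt genes from Ugt302K1 to Ugt303A1 formed 1 run on arm 3R. Cross-hybridisation between such close copies was not tested.

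Values are log2 RMA signals, in which a difference of 1 is a doubling. Signals of different probe sets do not rank transcript amounts, because probes differ in affinity. A gene was taken as above the dim cut where more than 6 of its 12 values exceeded the 20th percentile of their array. This held for 32 of 34 Gst genes (94.1%) and 18 of 33 Ugt genes (54.5%), 50 members in all, against 8815 of all 10844 genes (81.3%). The 17 members under the cut were GstD6, GstE5 and 15 Ugt genes, among them Ugt302E1, Ugt302K1, Ugt304A1, Ugt37C1 and Ugt49B2.

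**Figure D1:**
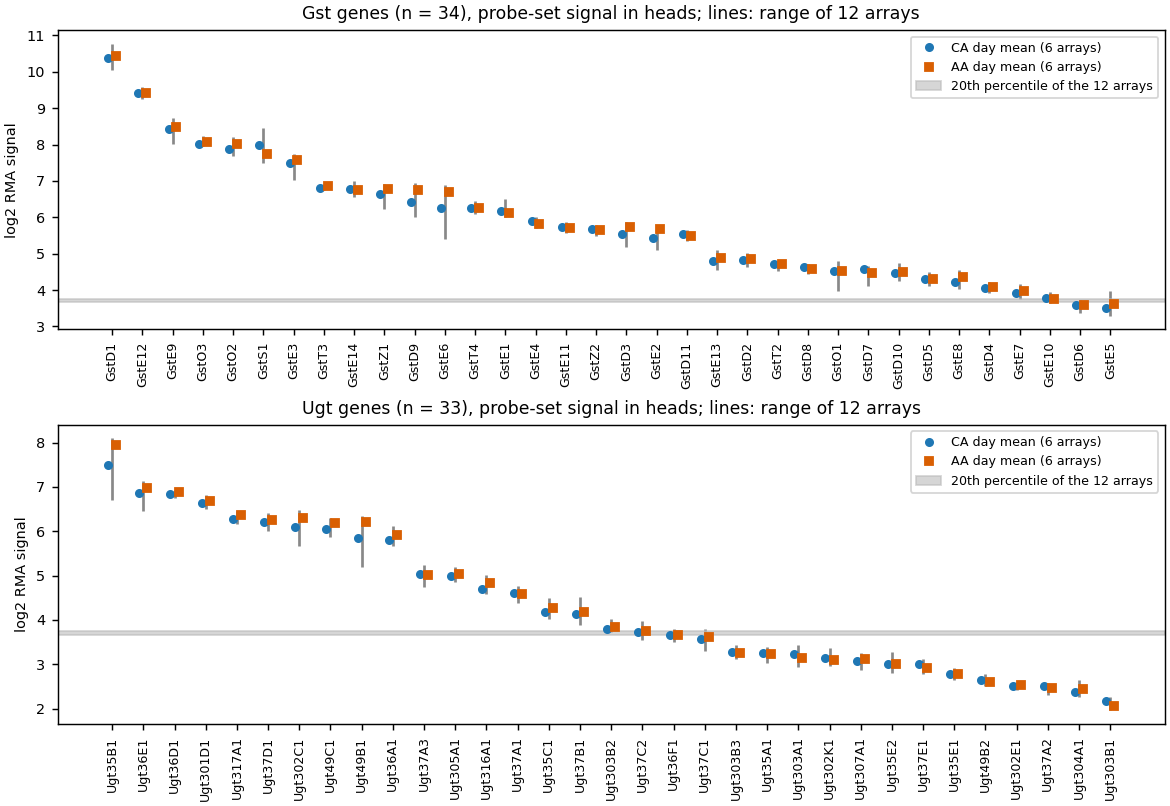
Log2 RMA signal of the 34 Gst and 33 Ugt genes, ordered by mean signal. Circles (CA day) and squares (AA day) are means of 6 arrays, lines span the 12 arrays, and the grey band spans the 20th percentiles of the arrays. The tallest lines belong to GstE6, Ugt35B1 and Ugt49B1.

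GstD1, the delta-class enzyme known for DDT breakdown and for its induction by oxidative stress, gave the brightest Gst signal, with a mean of 10.41 over 12 arrays. The next probe sets by signal were those of GstE12 (9.42) and GstE9 (8.46), both of the epsilon class. GstO3 (8.05) and GstO2 (7.96) belong to the omega class, whose members carry out thiol transfer and reduction. GstS1 (7.87), the sigma-class enzyme that conjugates lipid peroxidation products and is abundant in flight muscle, completed the first 6. The GstD genes as a class ranged from 3.58 to 10.41, and 10 of 11 were above the dim cut. The 14 GstE genes ranged from 3.56 to 9.42, and 13 were above it. All 3 GstO, 3 GstT and 2 GstZ genes were above the cut, the last being the zeta class, known in mammals for a step of tyrosine breakdown. GstE14, which acts in ecdysteroid synthesis, had a mean of 6.75.

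Among the Ugt genes, Ugt35B1 had the brightest signal, with a mean of 7.72, and it is known as an antenna-enriched enzyme. Ugt36E1 (6.91), known to be required for olfactory sensitivity, Ugt36D1 (6.85) and Ugt301D1 (6.66) followed. Ugt317A1 (6.33) and Ugt37D1 (6.23) completed the first 6. In the run of 9 Ugt genes on 3R, only Ugt302C1 (6.19) and Ugt35B1 were above the dim cut.

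The range over the 12 arrays had a median of 0.43 for the 50 members above the cut, against 0.39 for all 8815 genes above it. It was under 0.5 for 30 of the 50 members, against 70.9% of all genes above the cut, and over 1 for GstE6, Ugt35B1 and Ugt49B1 (3 of 50, against 5.06%). Without CA18 the largest range among the 50 members was 0.97 (GstS1).

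The array CA18 held the lowest value of 20 of the 50 members (40.0%), 13 Gst and 7 Ugt genes. Over all genes above the dim cut the share was 15.1%. It held the highest value of 10 of the 50 members, against 23.0% of all genes. The median member stood 0.11 below its own mean on CA18, where the median gene stood 0.04 above. On the AA day, AA6 held the highest value of 13 members (26.0%), against 8.13% of all genes. AA6 also had the highest median deviation of the male reproductive tract markers (0.48), and that of the gut markers was 0.21 there, second only to AA2 (0.28) on the AA day. Their part in the member values was not tested.

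**Figure D2:**
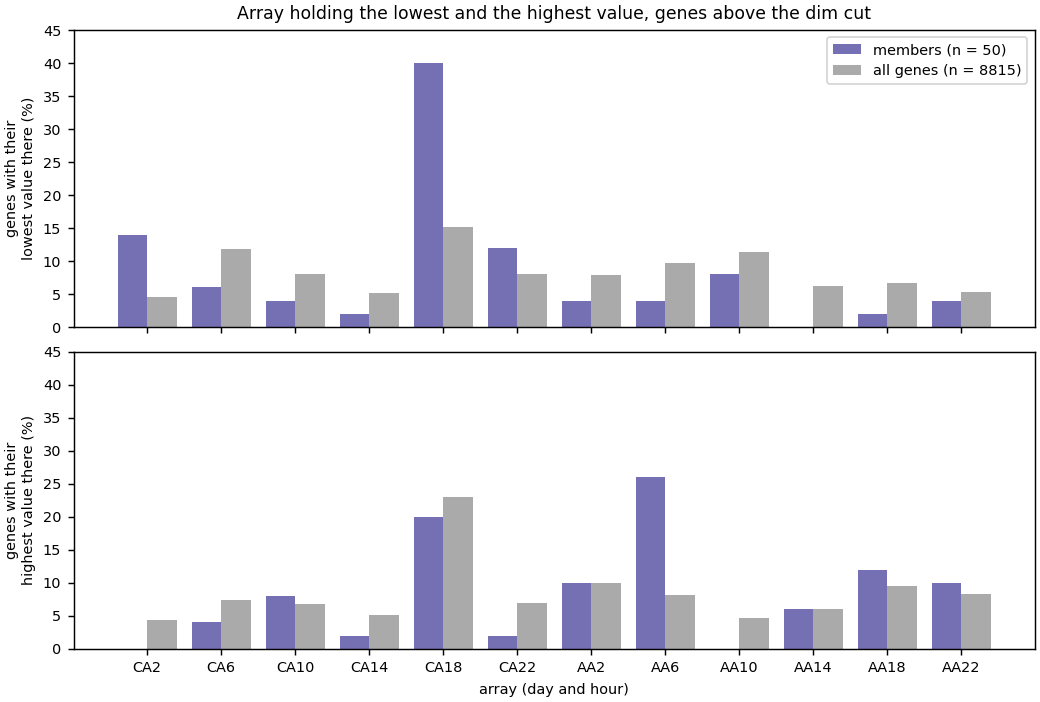
Share of genes (%) with their lowest (top) and highest (bottom) value on each array, for 50 members above the dim cut (purple) and all 8815 genes above it (grey). CA18 holds the lowest value of 40.0% of the members and 15.1% of all genes, and AA6 the highest value of 26.0% and 8.13%.

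GstE6 had the largest gap, with 5.39 on CA18 against 6.203 to 6.88 on the 11 other arrays. Ugt35B1 had 6.71 there, against 7.41 to 8.10 on the others. Ugt49B1 had 5.18, against 5.73 to 6.34. For these 3 genes, CA18 lay 0.81, 0.70 and 0.54 below the lowest other array. The next largest gap was that of GstZ1 (6.231 on CA18, against 6.635 to 6.902). In no order of gap, CA18 was also lowest for GstD9 (6.01 on CA18, against 6.38 to 6.95), Ugt302C1 (5.66, against 6.05 to 6.48) and GstE2 (5.09, against 5.35 to 5.79). The same held for GstE9 (8.03, against 8.31 to 8.73), GstO1 (3.98, against 4.35 to 4.79) and GstO2 (7.68, against 7.79 to 8.19). GstO2 and Ugt35B1 had further probe sets. The second GstO2 probe set had 4.76 on CA18 and 4.89 to 5.13 elsewhere, and the third lay under the dim cut on all arrays. The second Ugt35B1 probe set had 5.33 on CA18 and 5.48 to 5.81 elsewhere, so CA18 was lowest there too.

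Other members had their highest value on CA18. GstD1 had 10.77 there, against 10.06 to 10.52 on the other arrays. GstE1, which lies beside GstE2 in the cluster, had 6.49, against 6.01 to 6.22. GstE14 had 6.99, against 6.55 to 6.83. Of the 9 genes of the GstE run above the dim cut, CA18 was the lowest array for GstE2, GstE3, GstE6, GstE7 and GstE9 and the highest for GstE1, so genes of 1 cluster lay on opposite sides of their own means there.

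**Figure D3:**
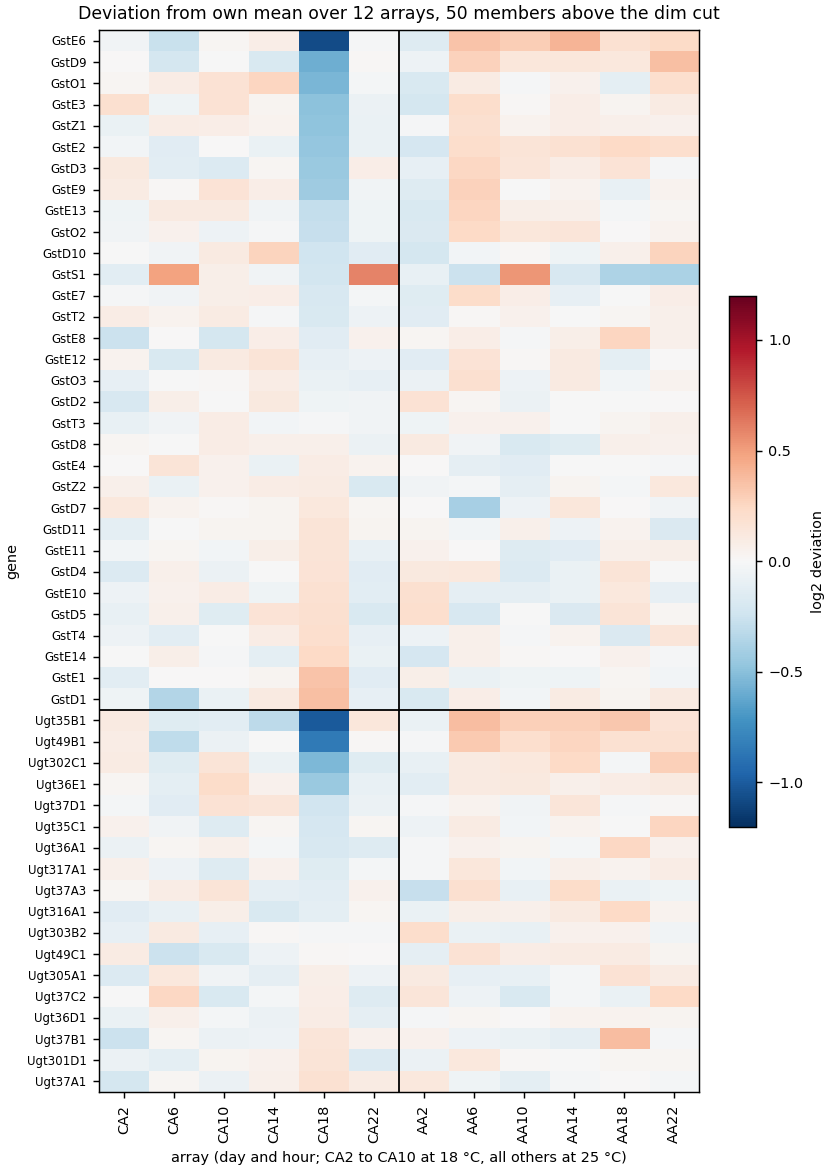
Deviation of each of the 50 members above the dim cut from its own mean (log2, colour), with 12 arrays across and the CA day left of the AA day, and genes ordered within each family by their value on CA18. The column CA18 runs from the darkest blue cells (GstE6, Ugt35B1, Ugt49B1) to red cells (GstD1, GstE1).

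CA18 also stood apart in measures that use no member. Its highest correlation with any other array was 0.99, against at least 0.994 for each of the others, and its array weight in limma was 0.38. The 9 hybridisation spike-in probe sets stood 0.98 below their mean there, against -0.21 to 0.28 on the other arrays. The difference between the 5′ and 3′ probe sets was smallest on CA18 for the actin control (-0.82, against -1.85 to -0.87), the eIF-4a control (-1.42, against -2.81 to -1.56) and the GAPDH control (-2.01, against -2.64 to -2.40). Of the 8 fat body markers, 4 were lowest and 1 (Fbp1, 8.46 there with a mean of 6.68) was highest on CA18, while Lsp2, Yp2 and Npc2e were above their own means, and their summed signal was 15.57 on the log2 scale, against 15.61 to 15.70 elsewhere. The summed signals of the glia markers (5 genes; 10.98 against 10.52 to 10.93) and photoreceptor markers (7 genes; 13.36 against 13.09 to 13.34) were above those of all other arrays. The summed signals of the gut markers (18 genes; 10.85 against 10.66 to 11.33), tubule markers (9 genes; 10.39 against 10.38 to 10.73) and antenna markers (6 genes; 10.64 against 10.57 to 11.01) lay within the range of the other arrays. The brightest genes weigh most in these sums, and single markers of a list differed on CA18. Of the glia markers, 2 (Gs2 and moody) were highest and 1 (repo, 5.19 there with a mean of 5.83) was lowest. Of the photoreceptor markers, 1 (Arr1, 11.83 there) was highest and 2 (inaD and Arr2) were lowest. Of the antenna markers, 1 (Obp28a) was highest and 1 (Obp57c, 4.79 there with a mean of 6.1) was lowest. The part of these measures in the member values was not tested.

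Some pairs of members had similar and others opposite profiles. Across the 12 arrays the 3 highest Pearson correlations among the 50 members were those of GstE6 with Ugt49B1 (0.97), GstE9 with GstE3 (0.95) and Ugt35B1 with Ugt49B1 (0.95). Without CA18 these were 0.90, 0.86 and 0.82. Only GstE9 and GstE3 lie in the same cluster. The most negative were those of Ugt37A1 with GstT2 (-0.87) and GstD5 with Ugt37A3 (-0.86), or -0.81 and -0.85 without CA18. Pairs within a run of neighbours had a median correlation of 0.04 (89 pairs) and all other pairs 0.06 (1136 pairs), which were 0 and 0.14 without CA18. These describe 12 arrays that share their processing, and the points of a pair share each array's RNA.

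The first comparison asked whether members differed between the cryophase and the thermophase of the CA day. No member passed the adjusted threshold of 0.05 in limma, where 0.00716% of all probe sets did. The smallest adjusted p of a member was 0.58. At an unadjusted p under 0.05, 5 of 67 members (7.46%) were counted, 2 higher and 3 lower in the cold, against 8.15% of all probe sets. The median difference, CA cold minus CA warm, was 0.02 over the members and -0.01 over all genes.

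GstD1 had 10.36, 10.06 and 10.33 in CA cold, against 10.52, 10.77 and 10.31 in CA warm. The phases overlapped through CA22, with a difference of -0.28 (SE 0.12, limma adjusted p = 0.58). Without CA18 the difference was -0.17 (adjusted p = 1). Ugt302C1 had 6.29, 6.05 and 6.35 in CA cold, against 6.11, 5.66 and 6.05 in CA warm, also overlapping, with a difference of 0.29 (SE 0.13, limma adjusted p = 0.60) that was 0.15 without CA18. Ugt37A1 had 4.38, 4.61 and 4.52 in CA cold, against 4.66, 4.78 and 4.69 in CA warm. Its phases did not overlap, and the difference was -0.20 (SE 0.08, limma adjusted p = 0.58). Ugt49B2, under the dim cut, had 2.54, 2.62 and 2.58 in CA cold, against 2.74, 2.66 and 2.79 in CA warm, with no overlap and a difference of -0.15 (SE 0.07, limma adjusted p = 0.61). The fifth was GstT2, of the theta class, with a difference of 0.16 (limma adjusted p = 0.61). Here and below, the share of all genes whose groups did not overlap is not given. Naming members by the smallest p on these same arrays favoured such separation. Leaving out CA2, CA10 or CA18 brought the 5 to 2 and leaving out AA18 or AA22 to 3, while it was 10 without CA14 and 8 without CA22. The share of all probe sets was 8.78%, 3.91% and 4.64% without CA2, CA10 and CA18, 7.41% and 6.96% without AA18 and AA22, and 12.2% and 10.5% without CA14 and CA22. The GstD1 difference was -0.19 without CA6.

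On the AA day, subjective cold against subjective warm, no member passed the adjusted threshold (0% of all probe sets did). At an unadjusted p under 0.05 stood 2 members (2.99%), against 4.55% of all probe sets, both lower in the subjective cryophase. Ugt302K1 had 3.03, 3.03 and 2.96 in the subjective cryophase, against 3.30, 3.19 and 3.14 in the subjective thermophase, with no overlap and a difference of -0.20 (SE 0.08, limma adjusted p = 1). Ugt37C1 had 3.61, 3.30 and 3.58, against 3.62, 3.79 and 3.74, with a difference of -0.22 (SE 0.09, limma adjusted p = 1). Both genes lie under the dim cut. GstD7 (-0.19, SE 0.10) and Ugt304A1 (0.14, SE 0.08) came next, also at an adjusted p of 1. Without AA6 the GstD7 and Ugt37C1 differences were -0.06 and -0.12, and that of Ugt304A1 was 0.06 without AA2 and 0.09 without AA22. The count of 2 was 4 without AA2 (5.94% of all probe sets) and 1 without AA10, AA18 or AA22 (2.86% to 3.59%). The median difference was -0.03 over the members and -0.02 over all genes.

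Whether the phase difference changed between the days was tested as the CA difference minus the AA difference. No member passed the adjusted threshold (0% of all probe sets), and the smallest adjusted p of a member was 0.57. At an unadjusted p under 0.05 stood 3 members (4.48%), against 7.9% of all probe sets. Ugt302K1 had a phase difference of 0.16 on the CA day (3.37, 3.15 and 3.17 in CA cold, against 3.02, 3.11 and 3.08 in CA warm) and of -0.20 on the AA day, a difference of 0.36 (SE 0.11, limma adjusted p = 0.57). That of Ugt302C1 was 0.41 (SE 0.18, adjusted p = 0.62), or 0.27 without CA18, and those of Ugt37C1 and GstT2 were 0.27 (SE 0.13) and 0.21 (SE 0.10). That of Ugt37C1 was 0.17 without AA6. The count of 3 was 1 without CA2, CA10 or AA22 (4.53% to 7.68% of all probe sets), 5 without AA6 or AA10 (9.59% and 6.95%), and 7 without CA14 (12.2%).

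At matched hours of 18 °C and 25 °C, CA cold against AA subjective cold, no member passed (0% of all probe sets). Ugt302K1 and GstD7 stood at an unadjusted p under 0.05 (2.99% of members), against 3.54% of all probe sets. Ugt302K1 had the CA cold and AA values given above, which did not overlap, with a difference of 0.23 (SE 0.08, limma adjusted p = 1). GstD7 had 4.65, 4.56 and 4.53 in CA cold, against 4.52, 4.12 and 4.46 in AA subjective cold. The CA values were all higher, with a difference of 0.21 (SE 0.10, limma adjusted p = 1), and the lowest AA value was that of AA6. GstE4 had 5.86, 6.01 and 5.90 in CA cold, against 5.86, 5.75 and 5.72 in AA subjective cold, a difference of 0.15 (SE 0.07, adjusted p = 1). GstE8 had 4.04, 4.29 and 4.08 in CA cold, against 4.31, 4.37 and 4.28 in AA subjective cold, a difference of -0.18 (SE 0.09, adjusted p = 1). The count of 2 was 7 without AA2 (5.72% of all probe sets), 4 without CA18 (4.15%), and 1 without CA2, CA14, CA22, AA14, AA18 or AA22 (3.06% to 4.45%). The GstD7 difference was 0.09 without AA6.

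The thermophase after cold, CA warm against AA subjective warm, gave the largest member differences, all at the same temperature. No member passed the adjusted threshold (0.0143% of all probe sets did), and the smallest adjusted p of a member was 0.21. At an unadjusted p under 0.05 stood 8 members (11.9%), against 14.6% of all probe sets, and all 8 were lower in CA warm, a direction in which 8.18% of all probe sets stood. They were GstE2, GstD9, Ugt302C1, Ugt35B1, Ugt49B1, Ugt316A1, GstE6 and Ugt36A1. The median difference was -0.07 over the members, against -0.01 over all genes, and 44 of the 67 members (65.7%) were lower in CA warm, against 52.3% of all genes.

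GstE2 had 5.47, 5.09 and 5.47 in CA warm, against 5.74, 5.79 and 5.76 in AA subjective warm. GstD9 had 6.41, 6.01 and 6.61 in CA warm, against 6.73, 6.72 and 6.95 in AA subjective warm. Neither gene's groups overlapped, and the differences were -0.42 (SE 0.12, limma adjusted p = 0.21) and -0.46 (SE 0.14, limma adjusted p = 0.22). Ugt302C1 had 6.11, 5.66 and 6.05 in CA warm, against 6.44, 6.17 and 6.48 in AA subjective warm, with a difference of -0.42 (SE 0.13, limma adjusted p = 0.22). Ugt35B1 had 7.41, 6.71 and 7.86 in CA warm, against 8.01, 8.04 and 7.89 in AA subjective warm, with a difference of -0.65 (SE 0.21, limma adjusted p = 0.24). Both again had no overlap between the groups. These genes were named for the smallest p on these same arrays, which favoured such separation. The groups of the second Ugt35B1 probe set overlapped, with 5.478, 5.33 and 5.616 in CA warm, against 5.615, 5.811 and 5.547 in AA subjective warm. GstE6 had a difference of -0.61 (SE 0.24, adjusted p = 0.28) and Ugt49B1 of -0.49 (SE 0.19, adjusted p = 0.27).

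Without CA18 the differences were -0.29 for GstE2 (limma adjusted p = 0.42), -0.29 for GstD9 (0.45), -0.28 for Ugt302C1 (0.46) and -0.34 for Ugt35B1 (0.47). Those of GstE6 and Ugt49B1 were -0.24 and -0.20. The direction of these 6 genes was the same with and without that array. All 6 were picked from those at an unadjusted p under 0.05 on these same arrays, which favoured a kept direction. Without CA18, 7 members stood at an unadjusted p under 0.05, 6 of them lower in CA warm, against 9.8% of all probe sets. GstS1 was then the member higher in CA warm, with 7.83, 7.65 and 8.47 in CA warm, against 7.68, 7.50 and 7.49 in AA subjective warm, and a difference of 0.42 (SE 0.22) with and 0.59 without CA18.

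**Figure D4:**
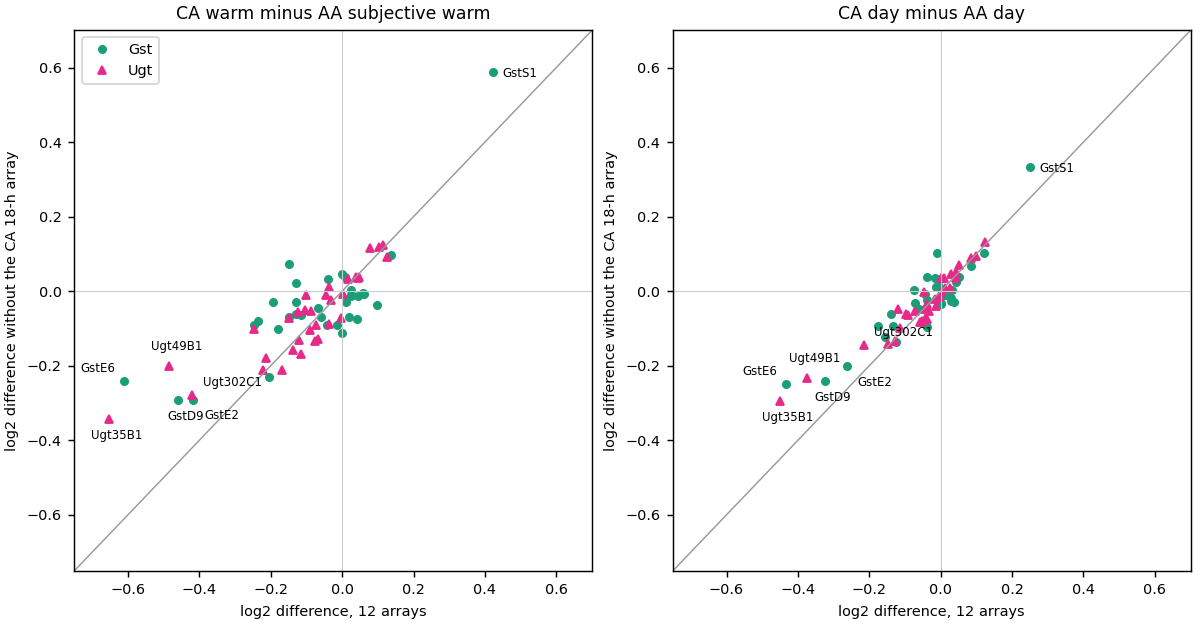
Log2 difference of each of the 67 members (circles Gst, triangles Ugt) with all 12 arrays (x) and without CA18 (y), for CA warm minus AA subjective warm (left) and CA day minus AA day (right). The grey diagonal marks equal values, and Ugt35B1 lies at -0.65 (x) and -0.34 (y) on the left.

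Over the whole CA day against the whole AA day, no member passed the adjusted threshold (0% of all probe sets). At an unadjusted p under 0.05 stood 9 members (13.4%), against 8.89% of all probe sets. Of these, 8 were lower on the CA day, a direction in which 5.33% of all probe sets stood. They were GstD9, GstE2, Ugt35B1, Ugt49B1, GstE6, GstE8, Ugt316A1 and Ugt302C1, and Ugt303B1, under the dim cut, was higher. The median difference was -0.04 over the members and -0.005 over all genes.

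GstD9 had a lowest, median and highest value of 6.01, 6.496 and 6.61 on the CA day, against 6.53, 6.73 and 6.95 on the AA day, with a difference of -0.32 (SE 0.10, limma adjusted p = 0.48). For GstE2 these values were 5.09, 5.47 and 5.56 on the CA day, against 5.35, 5.75 and 5.79 on the AA day, with a difference of -0.26 (SE 0.08, limma adjusted p = 0.48). Only AA2 of the AA arrays reached into the CA range for either gene. Ugt35B1 had 6.71, 7.59 and 7.86 on the CA day, against 7.64, 8.01 and 8.10 on the AA day, with a difference of -0.45 (SE 0.15, limma adjusted p = 0.49). Ugt49B1 had 5.18, 5.99 and 6.12 on the CA day, against 6.02, 6.23 and 6.34 on the AA day, with a difference of -0.37 (SE 0.13, limma adjusted p = 0.49). GstE6 had 5.39, 6.44 and 6.55 on the CA day, against 6.32, 6.73 and 6.88 on the AA day, with a difference of -0.43 (SE 0.17, adjusted p = 0.50).

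Taken hour by hour, GstD9, GstE2, GstE6, Ugt35B1 and Ugt49B1 were each lower on the CA array at 5 of 6 hours, the exception being hour 2. The second Ugt35B1 probe set, with day means of 5.498 (CA) and 5.639 (AA), had another exception. It was lower at hour 2 (5.516 against 5.636) and higher at hour 22 (5.616 against 5.547) on the CA day. Of the 50 members above the cut, 14 (28.0%) were lower on the CA day at 5 hours and 0 at all 6, against 11.7% and 1.99% of all genes above the cut. For GstE6 the CA minus AA differences were 0.11, -0.60, -0.27, -0.33, -1.26 and -0.25 from hour 2 to hour 22. For these 5 genes, leaving out AA2 made the day difference larger and leaving out CA18 made it smaller. Without AA2, 14 members stood at an unadjusted p under 0.05, 11 lower, against 12.8% of all probe sets, and the smallest adjusted p was 0.19. Without CA18 the count was 8, 6 of them lower, against 7.96% of all probe sets. GstD9, Ugt35B1 and Ugt49B1 then had differences of -0.24, -0.30 and -0.23 (limma adjusted p = 0.50 each), and GstE6 of -0.25 (adjusted p = 0.55). The count was 5 without CA6 and 4 without AA6, against 6.18% and 5.64% of all probe sets.

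**Figure D5:**
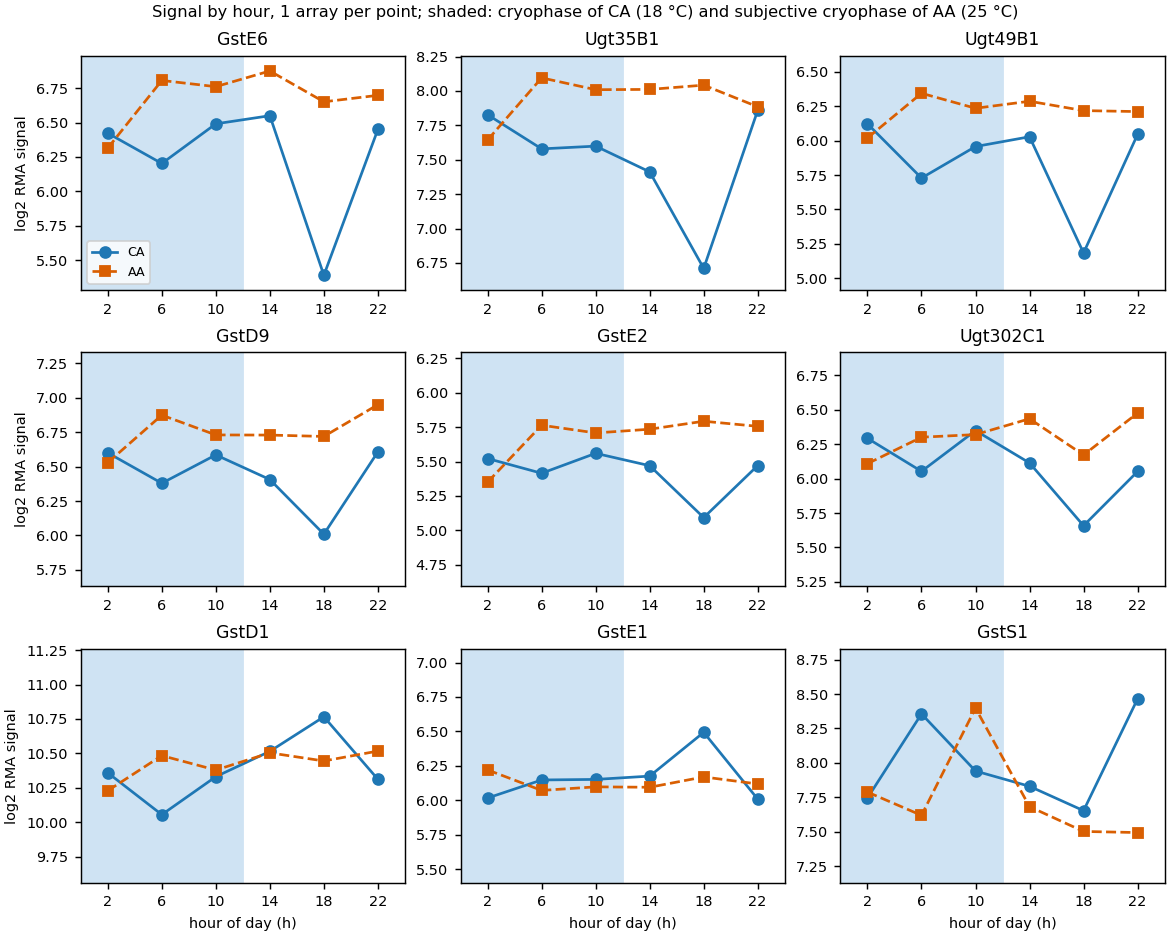
Log2 RMA signal of 9 members by hour of day (h), with circles and solid lines for the CA day, squares and dashed lines for the AA day, and 1 array per point; shading marks the first 12 h, at 18 °C on the CA day. GstE6, Ugt35B1, Ugt49B1, GstD9 and GstE2 lie lower on the CA day at every hour except 2, with a dip at CA18, where GstD1 and GstE1 peak.

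An hour effect common to both days was tested with the day as a covariate. No member passed (0% of all probe sets), and 0 of 67 stood at an unadjusted p under 0.05 in limma, against 2.97% of all probe sets. GstE13, GstO1, Ugt37B1 and GstE6 had the smallest p, with a limma adjusted p of 0.98 each. Their hour means spanned 0.34, 0.49, 0.36 and 0.69, and those of GstO1 and GstE6 spanned 0.24 and 0.34 without CA18, and 0.75 and 1.19 without AA18. The count of 0 was 7 without AA18, 2 without CA2 and 1 without AA2, against 8.91%, 6.09% and 3.67% of all probe sets.

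Daily periodicity was measured as F24, how much of a profile's variance over 6 time points a 24-h cycle takes up, and set against all 60 distinct orders of those points. Of the 50 members tested, 0 reached the smallest local p on the CA day and 0 on the AA day, against 1.72% and 1.48% of all tested probe sets. The smallest local p of F24 that 60 orders allow was 0.0167. Of 11169 probe sets, 192 and 165 reached it, where chance alone gives 186.2. At such shares a count of 0 of 50 cannot set the members apart. The lowest false discovery rate of any probe set was 0.48 on the CA day and 0.54 on the AA day, so none met 0.2. Among the members, the highest F24 on the CA day was that of Ugt36A1 (0.96), with its peak near hour 8.5 and a range of 0.25. When dim probe sets were kept, Ugt37C1 alone of 67 members reached the smallest p on the AA day, with its highest value at hour 18, its lowest at hour 6 and an F24 of 0.79.

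GstS1 was high on single arrays of 3 groups. It had 7.75, 8.36 and 7.94 in CA cold, 7.83, 7.65 and 8.47 in CA warm, 7.79, 7.62 and 8.40 in AA subjective cold, and 7.68, 7.50 and 7.49 in AA subjective warm. CA6, CA22 and AA10 were the high arrays. On these 3 arrays the median flight muscle marker deviated from its own mean by 0.25, -0.12 and -0.05. The median gut marker did so by 0.38, -0.13 and -0.17, so by the median neither list was high on all 3. By summed signal, in which Mlc2 (mean 10.75) weighs most, the flight muscle markers were highest on CA22 (11.10, against 11.09 on CA18). Their sums lay between 10.83 and 10.89 in CA cold and between 10.82 and 11.01 in AA subjective cold. The part of muscle in the GstS1 values was not tested. Of the 7 flight muscle markers measured, 5 were above the dim cut, and fln and TpnC4 were not.

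GstE12 averaged 9.41 ± 0.15 in CA cold and 9.42 ± 0.14 in CA warm, and 9.43 ± 0.15 and 9.42 ± 0.11 in the AA subjective cryophase and thermophase (SD, n = 3 each). GstO3 averaged 8.02 ± 0.06 in CA cold, 8.02 ± 0.11 in CA warm, 8.07 ± 0.15 in AA subjective cold and 8.09 ± 0.07 in AA subjective warm (SD, n = 3 each). Ugt36D1 stayed between 6.74 and 6.94, Ugt301D1 between 6.49 and 6.81, and Ugt317A1 between 6.17 and 6.47 on all 12 arrays. Ugt36E1 ran from 6.463 on CA18 to 7.13, a range of 0.67, and Ugt37D1 from 6.003 on CA18 to 6.403. The 38 members outside the naming rule included GstE1, GstE14, GstZ1, Ugt36A1, Ugt303B1 and Ugt316A1, which were described after their values were seen. All 38 had adjusted p above the threshold in every comparison.

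Genes that supply or regulate these enzymes were counted from lists. Of 9 measured genes for glutathione supply and other glutathione transferases, 0 passed the adjusted threshold in any of the 6 comparisons, and their median difference between CA cold and CA warm was -0.04. Trxr1, thioredoxin reductase, which in flies also keeps glutathione reduced, had the smallest p, with differences of -0.28 between CA cold and CA warm (limma adjusted p = 0.47) and 0.39 between CA warm and AA subjective warm (adjusted p = 0.18). Clic had 0.14 between CA cold and CA warm. The 3 measured genes of UDP-sugar supply had a median of 0.11 there, led by UGP (0.26, limma adjusted p = 0.66), which makes UDP-glucose, and sgl (0.11), which makes UDP-glucuronate.

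Of 7 regulators of detoxification genes, 0 passed, with a median of 0.05 between CA cold and CA warm, where ss and Met had 0.14 and -0.15. Only 4 of the 7 were above the dim cut, while ss (mean 2.49), Keap1 (3.36) and Hr96 (2.88) were under it. maf-S, the small Maf partner of the Nrf2 homologue cnc, had differences of -0.46 between CA warm and AA subjective warm (limma adjusted p = 0.20) and -0.37 between the days (adjusted p = 0.45), and was named after its values were seen. Over the list of 7, 4 were higher and 3 lower in each of these comparisons, with medians of 0 and 0.01. Met, a juvenile hormone receptor, stood on the other side, with 0.33 (limma adjusted p = 0.20) and 0.18 (adjusted p = 0.49). Of 11 genes of phase I metabolism and export, 0 passed, and the median was 0.01. MRP (0.23, limma adjusted p = 0.58), an export pump of conjugates, and Cyp6a8 (0.38, adjusted p = 0.59), a cytochrome P450, had the smallest p.

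All 7 photoreceptor markers measured were above the dim cut, with Arr1 and Arr2 at means of 11.40 and 12.08. The cut does not tell tissues apart, because 81.3% of all genes passed it. So did 16 of 18 gut markers and 11 of 13 ovary markers. Frozen flies were broken and sieved to obtain heads, and fragments of bodies could pass the sieve. The summed signal of 14 male reproductive tract markers, of which 3 were above the dim cut, lay between 7.34 and 8.14 in CA cold, 7.28 and 7.33 in CA warm, 7.29 and 9.03 in AA subjective cold, and 7.39 and 7.44 in AA subjective warm. AA6 was the array at 9.03. The part of such pieces in the member values was not tested.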

How the data were processed

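The authors hybridised head RNA to Affymetrix Drosophila Genome 1 arrays, and the deposited values are log2 signals made with RMA (version not given in the sources used here), which includes quantile normalization, so shifts common to most genes are hidden. The number of arrays limits precision. Of 14010 probe sets, 44 controls were set aside and 13966 tested; symbols came from the platform annotation, with 12394 updated through Entrez identifiers to the table of the Release 6 plus ISO1 MT assembly, used for names and gene order only. The 4 groups of 3 arrays were compared in one fit over the 12 arrays by limma 3.58.1 (R 4.3.3; 8 residual and 5.28 prior degrees of freedom), two-sided, Benjamini-Hochberg adjusted over all tested probe sets. F24 was computed with numpy 2.4.6. The tests were checked on simulated data. Members, lists and tests were chosen with earlier results of these data known. Named were the 6 Gst and 6 Ugt members with the highest signal, the 4 with the smallest p in each comparison and those at the smallest F24 p, 29 in all. No sequence is shown.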

Additional observations from a re-analysis of the deposited data

Results flagged for a closer look

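The 29 named members were examined within each day of 6 arrays for an array set off from the other 5 by a gap past Dixon's 95% critical value, which chance alone gives in about 1 of 20 groups. Of 58 such groups, 12 had one, 5 of 29 (17.2%) on the CA day and 7 of 29 (24.1%) on the AA day. Over all 8815 genes above the dim cut the shares were 9.51% and 8.6%, and CA18 was the array set off in 6.32% of them, on the low side in 3.35%. The groups share arrays, and many of the 29 were named for their smallest p on these same arrays. On the CA day all 5 were CA18: GstE2 (5.093, against 5.42 to 5.56 on the others), GstE6 (5.391, against 6.203 to 6.55), GstE9 (8.026, against 8.42 to 8.62), GstO1 (3.98, against 4.50 to 4.79) and GstO2 (7.683, against 7.89 to 8.01). On the AA day AA2 was low for GstE2 (5.351, against 5.71 to 5.79), GstT2 (4.576, against 4.71 to 4.77) and Ugt36E1 (6.789, against 6.97 to 7.03), and AA18 was high for GstE8 (4.544, against 4.28 to 4.37) and Ugt37B1 (4.529, against 4.06 to 4.21). AA6 was low for GstD7 (4.115, against 4.46 to 4.66), and AA10 was high for GstS1 (8.398, against 7.49 to 7.79). AA2 and CA18 had the lowest array weights in limma, 0.41 and 0.38. No member's phase difference changed between the days at the adjusted threshold.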

How the results depend on the processing

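No member passed the adjusted threshold in any of 140 repeats of the 7 limma comparisons, and the smallest adjusted p of a named member was 0.0991. No signed difference of a named member changed sign in 485 repeats, of which 292 moved the value at all. Those members were chosen for the smallest p of each comparison on these same arrays, so their choice favoured a kept sign. Counts of members at an unadjusted p under 0.05 moved more. Leaving out 1 array gave 2 to 10 members for CA cold against CA warm, 1 to 4 for the AA phases, 1 to 7 for the change between the phase differences, 1 to 7 for CA cold against AA subjective cold, 7 to 12 for CA warm against AA subjective warm, 4 to 14 for the days and 0 to 7 for the hour. Median member differences then ran from 0.006 to 0.039, -0.073 to -0.033, 0.036 to 0.083, -0.029 to 0.014, -0.068 to -0.05 and -0.042 to -0.014 for the first 6 of these. With only the arrays of the comparison, 1 member stood there in CA cold against CA warm and 1 in CA cold against AA subjective cold. With 18 °C set against all 9 arrays at 25 °C, 2 members stood there and the median was -0.015. Without dim probe sets the counts were 0 for the AA phases, 1 for the change between phase differences and 0 for CA cold against AA subjective cold. With array weights they were 4 for the AA phases and 5 for CA cold against AA subjective cold. Without the 2-h and 14-h arrays the day count was 14 and the median change between phase differences 0.108. Keeping dim probe sets gave 1 member at the smallest F24 p on the AA day, and the cosine and sine test gave 0 on either day. Centring or quantile-normalizing the arrays again, variances with trend and robust estimation, and means over all probe sets of a gene left every count within 1.5 times. The causes were not tested. Labels give no replicate numbers, and residuals of the same hour correlated from -0.23 to 0.25 over all probe sets, so the days were not paired; a replicate block by hour gave 2, 2, 9 and 8 members for the 4 comparisons between days. For the phase and day contrasts that use all arrays, a fit on the arrays of the comparison equals the fit given.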
